A study of Mus musculus with 59 samples.

Results

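Fatty acid uptake and lipoprotein lipolysis in brown adipose tissue (BAT) were followed through 10 genes, chosen by name from the 55341 gene rows of the count tables. They are Lpl, Gpihbp1, Angptl4, Vldlr, Cd36, Slc27a1, Slc27a2, Fabp3, Fabp4 and Fabp5. All 10 were found in the tables of the 3 experiments, and all 10 passed the filter on low counts in every fit, with at least 28 reads in every mouse. RNA-seq had been done on the BAT of 59 male mice, each a library of its own, of C57BL/6J background and 8 to 12 weeks of age. The study asked which genes of BAT answer to thyroid hormone (TH), and how BATKO mice differ from controls under metabolic stress.

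In the TH experiment, mice were made hypothyroid with propyl-thio-uracil (PTU) in the food and then received 1 injection of T3 and T4. The wild-type (WT) groups were PTU-fed mice without TH and mice at 3, 6, 12 and 24 h after TH, with 4 mice in each. The BATKO groups were PTU-fed mice without TH and mice at 24 h after TH, with 5 mice in each. PTU was thus given to every mouse of this experiment, controls included. In the temperature experiment, 3 CTRL and 4 BATKO mice were kept at 4 °C, and 4 CTRL and 5 BATKO mice at 30 °C, which is thermoneutral for mice. The labels name the table of this experiment for 24 h. In the diet experiment, 4 CTRL and 3 BATKO mice received a high-fat diet (HFD), and 4 CTRL and 2 BATKO mice received chow. The labels name that table for 3.5 d. The genetic change that BATKO stands for, and the cells it affects, are not given in the sources used here, so that no targeted gene could be examined.

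The 10 genes cover the path of fatty acids from lipoproteins in the blood to the inside of the cell. Lipoprotein lipase (Lpl) releases fatty acids from triglycerides at the capillary wall, where the endothelial protein GPIHBP1 holds it, and ANGPTL4 is a secreted inhibitor of the enzyme. The VLDL receptor (Vldlr) binds triglyceride-rich lipoproteins. CD36 and the fatty acid transport proteins FATP1 (Slc27a1) and FATP2 (Slc27a2) bring fatty acids across the membrane or activate them, and the binding proteins FABP3, FABP4 and FABP5 carry them in the cytoplasm. Brown fat burns fatty acids to make heat, and it is known as a tissue that clears triglycerides from the blood in the cold.

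The libraries held 7612059 to 18073627 counted reads, of which 39.2 to 55.7% fell on mitochondrial genes. Values are given as CPM, that is, counts scaled to a common library total after TMM normalization. This aligns the libraries of 1 experiment to each other, so that CPM are compared within an experiment only. In the TH experiment the BATKO libraries were deeper than those of WT mice (13593987 to 18073627 against 7805938 to 14615534 reads). They also lay apart on the first principal component, which held 79.3% of the variance, at 124 to 131 against −69.5 to −59.2. Genotype and library set cannot be told apart there, and the levels of the 2 genotypes are only given side by side. BATKO mice 10, 11, 15 and 17 of that experiment lay below the other 6 on the second component, with mouse 15 (−3.08) close to mouse 2 (−1.91) of the others. They had 45.8 to 51.3% of reads on mitochondrial genes, against 40.0 to 44.5%. Brown adipocyte markers were present in every mouse, with none of 6 at 0. A list of 10 skeletal muscle markers summed to 0.848 to 9420.3 CPM and varied widely within groups, and up to 7 of the 10 were at 0 in a mouse. The 7 macrophage markers summed to 22.0 to 237 CPM.

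Levels per kilobase were taken over all annotated exons of a gene together. For Fabp4 these make 4489 bases, its whole span, and for Lpl 10478 bases. Such lengths can exceed those of the transcripts made, to an extent that may differ between genes. The order below therefore holds on this scale only. Fabp4 had the highest level in hypothyroid WT mice, at 1296 ± 96.7 CPM per kb (mean ± SD, n = 4). Lpl followed at 640.1 ± 106 and Cd36 at 514 ± 82.1 CPM per kb, and the SDs of these neighbours overlapped. Slc27a2 was at 36.7 ± 5.52 CPM per kb. Angptl4 at 17.8 ± 2.38, Slc27a1 at 17.8 ± 3.81, Vldlr at 17.1 ± 1.55 and Fabp3 at 16.7 ± 7.28 CPM per kb could not be ordered beyond their spread. Gpihbp1 was at 9.68 ± 2.29 CPM per kb. Fabp5 was lowest on this scale at 3.08 ± 0.969, with 3567 exon bases that make up most of its span. Fabp4, Lpl and Cd36 held the highest levels per kb in CTRL mice at 4 °C as well, where Fabp4 reached 1695 ± 80.1 (n = 3) and Lpl 1049 ± 355 CPM per kb.

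In the GRCm38 annotation of GENCODE (M21), with the strand in parentheses, the lipolysis genes are Lpl at chr8:68880491-68907448 (+), Gpihbp1 at chr15:75596628-75599481 (+), Angptl4 at chr17:33773750-33781830 (-) and Vldlr at chr19:27216484-27254231 (+). The uptake genes are Cd36 at chr5:17781690-17888801 (-), Slc27a1 at chr8:71568882-71587302 (+) and Slc27a2 at chr2:126552407-126588243 (+). The binding protein genes are Fabp3 at chr4:130308595-130315463 (+), Fabp4 at chr3:10204088-10208576 (-) and Fabp5 at chr3:10012548-10016607 (+). Counts cover the exons of each gene as a whole, so that transcripts of 1 gene are not separated.

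Reads of Fabp3 and Fabp5 are uncertain. The transcript of Fabp3 matches the processed pseudogene Fabp3-ps1 over 402 bases at 99.3% identity, and that copy held 31.5 to 74.1% of the reads of the pair, depending on the mouse. Fabp5 has 5 processed pseudogenes at 93.6 to 98.3% identity. Together they held 38.7 to 45.1% of the sum in BATKO mice of the TH experiment, and 6.73 to 14.8% in the WT mice. Fabp3 also overlaps Zcchc17 and Gm10570 on the opposite strand, and Slc27a2 overlaps Gm26697. The strand setting of the counting is not given in the sources used here, so that reads of these genes cannot be separated from those of their partners. For Fabp3 and Fabp5, tests were repeated on sums with the copies, which was decided after seeing the data.

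The promoters of Cd36, Slc27a2, Fabp3 and Vldlr are shown because these genes changed both after TH and in the cold, and because their start regions were among the 8 that could be matched, for 5 of the 10 genes, in RefSeq (GRCm38.p6). No region was matched for Lpl, Gpihbp1, Angptl4, Fabp4 and Fabp5. Each sequence runs from 250 bases before to 50 bases after a start. Capitals mark AGGTCA, the hexamer bound by nuclear receptors, on either strand, which reads TGACCT where it lies on the other strand. The positions are chr5:17835847-17836146 on the minus strand for Cd36, chr2:126552774-126553073 on the plus strand for Slc27a2, and chr4:130308488-130308787 on the plus strand for Fabp3. Vldlr has 2 starts, with regions at chr19:27216234-27216533 and chr19:27216770-27217069 on the plus strand.
Cd36: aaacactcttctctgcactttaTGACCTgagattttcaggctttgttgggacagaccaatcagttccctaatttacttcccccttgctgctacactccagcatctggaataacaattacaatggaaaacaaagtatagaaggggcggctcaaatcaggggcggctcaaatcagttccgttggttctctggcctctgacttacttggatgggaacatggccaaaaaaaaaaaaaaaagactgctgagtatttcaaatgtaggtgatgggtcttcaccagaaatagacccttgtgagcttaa
Slc27a2: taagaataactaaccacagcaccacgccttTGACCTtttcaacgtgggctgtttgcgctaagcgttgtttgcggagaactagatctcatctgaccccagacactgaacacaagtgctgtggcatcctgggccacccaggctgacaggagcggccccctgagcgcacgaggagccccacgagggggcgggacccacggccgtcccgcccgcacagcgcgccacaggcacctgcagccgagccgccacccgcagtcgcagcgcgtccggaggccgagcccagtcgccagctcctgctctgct
Fabp3: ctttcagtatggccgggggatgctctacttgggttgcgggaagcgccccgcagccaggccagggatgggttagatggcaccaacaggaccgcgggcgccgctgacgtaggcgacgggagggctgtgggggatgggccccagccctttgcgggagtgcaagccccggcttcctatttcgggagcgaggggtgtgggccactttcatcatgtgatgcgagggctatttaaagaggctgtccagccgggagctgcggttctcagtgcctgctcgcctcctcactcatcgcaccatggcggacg
Vldlr, upstream start: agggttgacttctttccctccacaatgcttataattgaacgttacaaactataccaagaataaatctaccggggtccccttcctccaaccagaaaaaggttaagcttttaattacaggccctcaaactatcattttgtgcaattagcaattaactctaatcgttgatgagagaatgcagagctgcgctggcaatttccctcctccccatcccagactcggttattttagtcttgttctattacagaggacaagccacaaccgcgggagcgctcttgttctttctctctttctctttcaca
Vldlr, downstream start: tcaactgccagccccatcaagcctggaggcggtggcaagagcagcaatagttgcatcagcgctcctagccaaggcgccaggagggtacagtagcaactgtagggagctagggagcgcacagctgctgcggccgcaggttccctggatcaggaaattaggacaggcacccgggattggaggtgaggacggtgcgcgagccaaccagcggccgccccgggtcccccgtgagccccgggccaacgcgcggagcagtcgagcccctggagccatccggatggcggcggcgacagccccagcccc
The hexamer occurs once in the region of Cd36, with its first base at position −228 from the start, and once in that of Slc27a2, at −220, both on the other strand. It was not found in the windows of Fabp3 and Vldlr, nor in those of Slc27a1. Of the 32851 RefSeq regions of this length, 16.3% hold it. The repeat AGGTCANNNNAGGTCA (DR4), classically bound by TH receptors, the repeat AGGTCANAGGTCA (DR1), bound by PPAR, and the cAMP response element TGACGTCA were matched in none of the 8 regions, and in 0.0152%, 0.0396% and 1.79% of all regions. The repeats overlap the hexamer by construction. No match says only that these letters are not in this window.

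In hypothyroid WT mice, Hr, a classical TH target gene, rose at every time point after TH (log2 fold change 3.57 ± 0.31 at 3 h and 4.56 ± 0.31 at 24 h, SE, n = 4). The 4 time points are compared with the same 4 PTU mice, so that they are not independent of each other. All adjusted p-values below come from the quasi-likelihood test of edgeR, adjusted by the Benjamini-Hochberg method over all genes tested, and a gene was called below 0.05. They set each difference against the spread between mice within groups, estimated over all groups of the fit and moderated over genes. Of the 10 genes, 1 was lower at 3 h, against 9.12% of all genes called in either direction. At 6 h 3 were lower, against 23% of all genes. At 12 h 3 were higher and 4 lower, against 25.7%, and at 24 h 1 was higher and 6 lower, against 32.7%. The median log2 fold change of the 10 genes was −0.26, −0.20, −0.19 and −0.88 at the 4 time points, and that of all genes between −0.02 and 0.01. Of 6 brown adipocyte markers, 2 were higher at 3 h, 2 higher and 1 lower at 6 h, 2 higher and 2 lower at 12 h, and 1 higher and 3 lower at 24 h. Their sum, mostly Ucp1, was 8349 to 9937 CPM in PTU mice, and above it at 11426 to 18629.9 CPM at 12 h. At 24 h the sum was 9130 to 16780 CPM and overlapped the PTU mice. Ucp1 was at 4499 to 6124 CPM in PTU mice and 7672 to 14577.5 CPM at 24 h, without overlap. Dio2 (30.5 to 234 and 74.5 to 653 CPM) and Prdm16 (12.4 to 15.6 and 11.8 to 20.4 CPM) overlapped. Adipoq, an adipocyte hormone gene, was at 1239.9 to 1391 CPM in PTU mice, 729 to 988 CPM at 12 h and 282 to 345 CPM at 24 h. The lipid droplet gene Plin1 was at 1032 to 1296, 526 to 623 and 478 to 582 CPM, and Cidea at 1032 to 1289, 801 to 1113 and 593 to 704 CPM. The mitochondrial share was 47.3 to 55.7% in PTU mice and 40.5 to 52.5% at 24 h. The part of these measures in the results for the 10 genes was not tested. In tissue RNA, fewer cells of a type and less RNA per cell cannot be told apart.

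**Figure D1:**
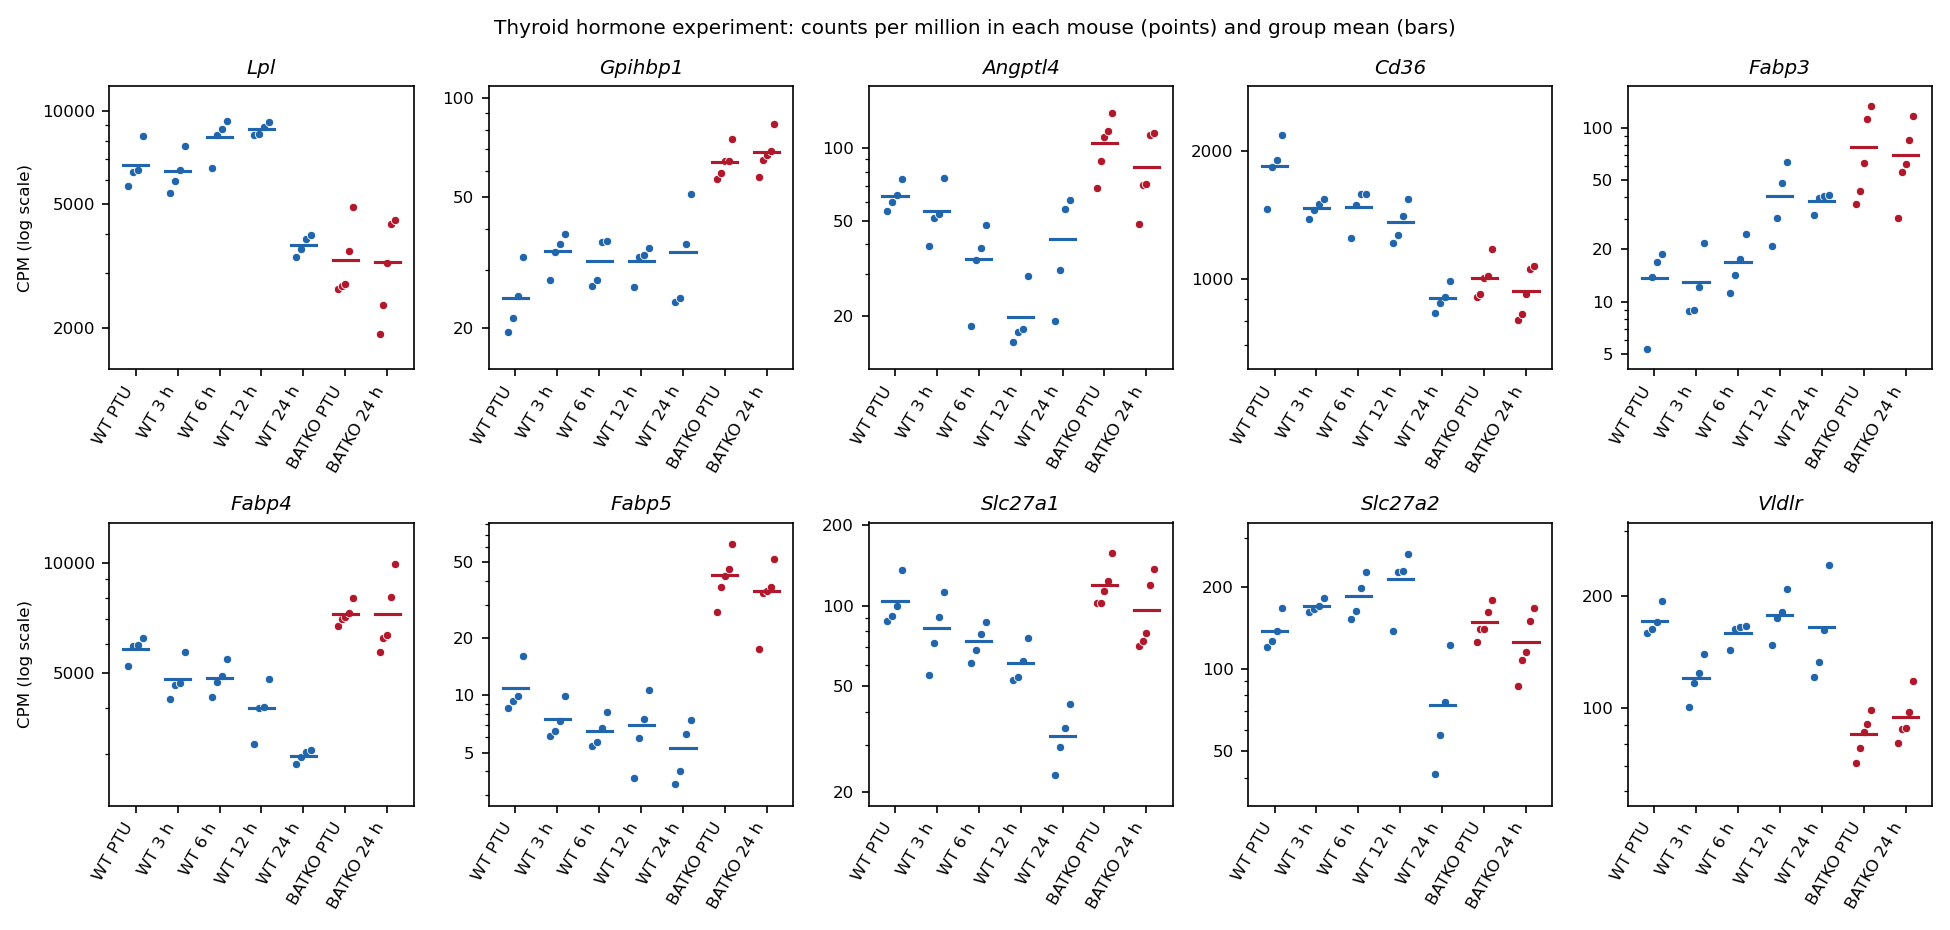
CPM (log scale) of the 10 genes in each mouse of the TH experiment (points), with the group mean (bars). WT groups are blue and BATKO groups red. In WT mice, Lpl, Cd36, Fabp4 and Slc27a1 were lowest at 24 h, and Fabp3 was highest at 12 and 24 h. The 2 BATKO groups overlap for every gene.

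Lpl was at 6430.4, 8309, 5741 and 6348 CPM in the 4 PTU mice. It was at 9181, 8341, 8409 and 8896 CPM at 12 h, or 1.31-fold higher (log2 fold change 0.39 ± 0.13 (SE), adjusted p = 0.0359), and the lowest of these was just above the highest PTU mouse, B3. At 24 h it was at 3571, 3384, 3985 and 3847 CPM, below every mouse of the other WT groups, and 1.82-fold lower than in PTU mice (log2 fold change −0.86 ± 0.13 (SE), adjusted p = 4.01e-05). The rise at 12 h was small, and it was no longer called when any one of B2, B4, B5, B19, B21 or B23 was left out (adjusted p of up to 0.11), with no filter on low counts (adjusted p = 0.0502), in a fit of the 8 mice compared (adjusted p = 0.0594) and in a fit of all 30 mice (adjusted p = 0.206). The fall at 24 h was called whichever mouse was left out.

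Angptl4, the inhibitor of the enzyme, had its lowest values at 12 h. PTU mice had 64.1, 74.5, 59.6 and 54.7 CPM, and mice at 12 h had 17.1, 15.6, 29.3 and 17.6 CPM, so that the groups did not overlap (3.14-fold lower, log2 fold change −1.65 ± 0.31 (SE), adjusted p = 0.000457). At 6 h it was at 48, 18.2, 34.2 and 38.3 CPM (log2 fold change −0.88 ± 0.30 (SE), adjusted p = 0.0396), again below every PTU mouse. This earlier call was lost when any one of B2, B3, B4, B13, B15 or B17 was left out (adjusted p of up to 0.108). At 24 h the 4 mice ranged from 19.1 to 61 CPM and overlapped the PTU mice (log2 fold change −0.59 ± 0.30 (SE), adjusted p = 0.136). Lpl and its inhibitor were thus called in opposite directions at 12 h in the fit of 20 WT mice, where the call of Lpl is the weaker, and at 24 h Lpl was called alone.

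Gpihbp1, which holds the enzyme on endothelial cells, passed the test at no time point. It was at 21.5, 19.6, 32.8 and 25.1 CPM in PTU mice and 24.7, 24.1, 50.9 and 36.1 CPM at 24 h (log2 fold change 0.45 ± 0.20 (SE), adjusted p = 0.0896). Its values were higher than in PTU mice on average at all 4 time points (log2 fold changes 0.45, 0.35, 0.37 and 0.45). The summed level of 8 endothelial markers was 392 to 407 CPM in PTU mice. It was 436 to 502 CPM at 3 h, above every PTU mouse, and it overlapped them later, at 348 to 473 CPM at 6 h, 329.7 to 434 CPM at 12 h and 389 to 447 CPM at 24 h.

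Vldlr, the lipoprotein receptor, was the only one of the 10 genes called at 3 h. It was at 170.2, 195, 159.7 and 164 CPM in PTU mice and 117, 101, 124 and 139.7 CPM at 3 h, without overlap (1.45-fold lower, log2 fold change −0.53 ± 0.16 (SE), adjusted p = 0.0453). From 6 h on its values overlapped those of PTU mice, with log2 fold changes of −0.12, 0.06 and −0.06. The call at 3 h was lost when any one of B2, B3, B5, B7, B8 or B9 was left out (adjusted p of up to 0.138).

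Cd36, which takes up long-chain fatty acids, was lower at 6, 12 and 24 h. PTU mice had 1905, 2178, 1463 and 1829 CPM, and mice at 24 h had 989, 835, 907 and 879 CPM, all of them below every other WT mouse (2.05-fold lower, log2 fold change −1.03 ± 0.12 (SE), adjusted p = 1.08e-06). The values ranged from 1246 to 1582 CPM at 6 h (log2 fold change −0.34 ± 0.12 (SE), adjusted p = 0.0409) and from 1215 to 1541 CPM at 12 h (log2 fold change −0.43 ± 0.12 (SE), adjusted p = 0.00877). Both of these groups overlapped PTU mouse B4. The call at 6 h was lost when any one of B2, B3, B5, B12, B15 or B17 was left out (adjusted p of up to 0.165), with no filter (adjusted p = 0.0785), with only the 8 mice compared (adjusted p = 0.0796) and with all 30 mice (adjusted p = 0.0599).

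The transport proteins FATP1 and FATP2 took different courses. Slc27a1 was at 91.7, 99.4, 136 and 87.5 CPM in PTU mice, 53.8, 61.9, 75.3 and 52.7 CPM at 12 h (log2 fold change −0.76 ± 0.20 (SE), adjusted p = 0.00811) and 23.1, 29.3, 42.8 and 34.8 CPM at 24 h. It was thus 3.19-fold lower at 24 h (log2 fold change −1.67 ± 0.21 (SE), adjusted p = 3.15e-06), and no mouse at 12 or 24 h overlapped a PTU mouse. At 6 h it was at 60.6 to 86.4 CPM, also without overlap, and was not called (log2 fold change −0.52 ± 0.20 (SE), adjusted p = 0.0679), although it was with no filter (adjusted p = 0.0297) and with only the 8 mice compared (adjusted p = 0.0242). Slc27a2 was at 126, 137, 167 and 121 CPM in PTU mice and 227, 137, 264 and 228 CPM at 12 h, where 3 of 4 mice were above all PTU mice (log2 fold change 0.65 ± 0.24 (SE), adjusted p = 0.0477). At 24 h it was at 41.1, 57.4, 122 and 75.7 CPM, with 3 of 4 mice below all PTU mice and B27 among them (log2 fold change −0.89 ± 0.24 (SE), adjusted p = 0.0063). The rise at 12 h was lost when any one of B2, B3, B5, B19, B21 or B23 was left out (adjusted p of up to 0.146), and the fall at 24 h was called whichever mouse was left out.

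Among the binding proteins, Fabp4 and Fabp5 fell and Fabp3 rose. Fabp4, the main form of adipocytes, was at 5909, 6223, 5203 and 5941 CPM in PTU mice, 4797, 3999, 4036 and 3182 CPM at 12 h and 3077, 3029, 2939 and 2809 CPM at 24 h. The groups at 12 h (log2 fold change −0.53 ± 0.12 (SE), adjusted p = 0.00311) and 24 h (1.97-fold lower, log2 fold change −0.98 ± 0.13 (SE), adjusted p = 4.56e-06) lay below every PTU mouse. Fabp5 was at 9.28, 8.59, 9.95 and 16.1 CPM in PTU mice and 4, 7.38, 3.42 and 6.26 CPM at 24 h, also without overlap (2.09-fold lower, log2 fold change −1.06 ± 0.28 (SE), adjusted p = 0.00555). Its call at 6 h (log2 fold change −0.78 ± 0.27 (SE), adjusted p = 0.0421) was lost when any one of B4, B5, B12, B15 or B17 was left out (adjusted p of up to 0.172), and with all 30 mice in the fit (adjusted p = 0.0751). Summed with its pseudogenes, Fabp5 kept the calls at 6 and 24 h.

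Fabp3, the form of heart and muscle, had the largest rise of the 10 genes. It was at 18.9, 17, 5.32 and 13.8 CPM in PTU mice, 63.7, 20.8, 48 and 30.2 CPM at 12 h and 40.5, 39.5, 41.1 and 31.3 CPM at 24 h. Every mouse at 12 and 24 h was above every PTU mouse, with 3.02-fold higher (log2 fold change 1.59 ± 0.36 (SE), adjusted p = 0.0025) and 2.79-fold higher (log2 fold change 1.48 ± 0.36 (SE), adjusted p = 0.00341) levels. Summed with Fabp3-ps1, the log2 fold change was 1.64 at 12 h (adjusted p = 0.00262) and 1.49 at 24 h (adjusted p = 0.00416). The summed level of the 10 skeletal muscle markers was 70.3 to 699 CPM in PTU mice, 3.92 to 328 CPM at 12 h and 294 to 1295 CPM at 24 h. None of the 10 markers was called at any time point. At 12 h, 3 of 4 mice had a lower muscle sum than every PTU mouse. At 24 h, 3 of 4 had a higher one, whose part in the result at 24 h was not tested.

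None of the 10 genes was called in BATKO mice at 24 h after TH, against 0.00% of all genes. At an unadjusted p below 0.05 edgeR had 677 of 14168 genes and 0 of the 10, and DESeq2 also called 0 genes. Hr was 0.50 ± 0.39 on the log2 scale (SE, n = 5, adjusted p = 0.965). For Lpl, the values were 2759, 2713, 2659, 4887 and 3535 CPM in PTU mice and 2364, 3242, 1909, 4430.2 and 4329 CPM after TH (log2 fold change −0.02 with a 95% confidence interval of −0.41 to 0.36). Mice 11 and 17 of the PTU group and 10 and 15 of the TH group, which were lower on the second component, had 3535 to 4887 CPM. The other 6 had 1909 to 3242 CPM. For Cd36, the values were 1007, 924, 909, 1177 and 1019 CPM and 801, 923, 827, 1057 and 1076 CPM (log2 fold change −0.10 with a 95% confidence interval of −0.33 to 0.12). Fabp3 was at 112, 43.1, 133, 36.2 and 62.3 CPM and 85.2, 30.3, 61.6, 55.7 and 117 CPM (log2 fold change −0.15 with a 95% confidence interval of −0.88 to 0.59).

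The difference between the responses of BATKO and WT mice at 24 h was tested as an interaction term. It was called for 4 of the 10 genes, against 12.3% of all genes, and each of the 4 had fallen in WT mice. These were Cd36 (difference of log2 fold changes 0.93 ± 0.16 (SE), adjusted p = 0.000454), Fabp4 (difference of log2 fold changes 0.98 ± 0.19 (SE), adjusted p = 0.0013), Slc27a1 (difference of log2 fold changes 1.35 ± 0.30 (SE), adjusted p = 0.00344) and Lpl (difference of log2 fold changes 0.83 ± 0.28 (SE), adjusted p = 0.0481). Cd36 and Fabp4 kept the call whichever mouse was left out, and so did Slc27a1. For Lpl the call was lost in 14 of 18 such fits, and held only without WT mouse B4 or BATKO mouse 7, 9 or 11 (adjusted p of up to 0.129 in the others). It was also lost with only the groups compared (adjusted p = 0.121). Fabp3 was not called (difference of log2 fold changes −1.63 ± 0.56 (SE), adjusted p = 0.0537). It was called with no filter on low counts (adjusted p = 0.0134), with a mean count above 50 (adjusted p = 0.0477) and in 4 of 18 fits with a mouse left out, and not with DESeq2 (adjusted p = 0.0525). Without BATKO mice 10, 11, 15 and 17, a fit chosen after seeing the data, Fabp3 was called (−2.18, adjusted p = 0.0202) and Slc27a1 was not (0.89, adjusted p = 0.0637). In that fit Slc27a1 of BATKO mice had a log2 fold change of −0.78 (adjusted p = 0.465), against −0.32 with all 10 mice. The interaction term was also called for 3 of 6 brown adipocyte markers, all 3 higher in BATKO. The 2 genotypes also differ in the library set, and the part of these in the difference of the responses was not tested.

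Side by side, the levels of the hypothyroid mice of the 2 genotypes differed in both directions. Fabp5 was at 62.3, 42.4, 46.3, 27.4 and 37.3 CPM in BATKO and at 8.59 to 16.1 CPM in WT mice. Gpihbp1 was at 59.1, 75.1, 56.8, 64.3 and 64 CPM in BATKO and 19.6 to 32.8 CPM in WT mice, where the endothelial sum was 488 to 561 and 392 to 407 CPM. The brown adipocyte marker sum was 3097 to 3801 CPM in BATKO and 8349 to 9937 CPM in WT mice, again without overlap, and its part in the levels of the 10 genes was not tested. Vldlr was at 86.3, 71.2, 98.8, 90.8 and 78.5 CPM in BATKO and 159.7 to 195 CPM in WT mice. Lpl was at 2659 to 4887 CPM in BATKO and 5741 to 8309 CPM in WT mice, and Cd36 at 909 to 1177 and 1463 to 2178 CPM, both lower in BATKO mice. Fabp4 was at 6723 to 8009.8 and 5203 to 6223 CPM, and Fabp3 at 36.2 to 133 and 5.32 to 18.9 CPM, both higher in BATKO mice. The 2 sets of libraries do not overlap for the genes given here, of which Lpl, Cd36 and Fabp4 carry calls of the interaction term. The share of all genes without such overlap was not computed, so that this cannot be read as a trait of these genes. Genotype and library set cannot be told apart.

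**Figure D2:**
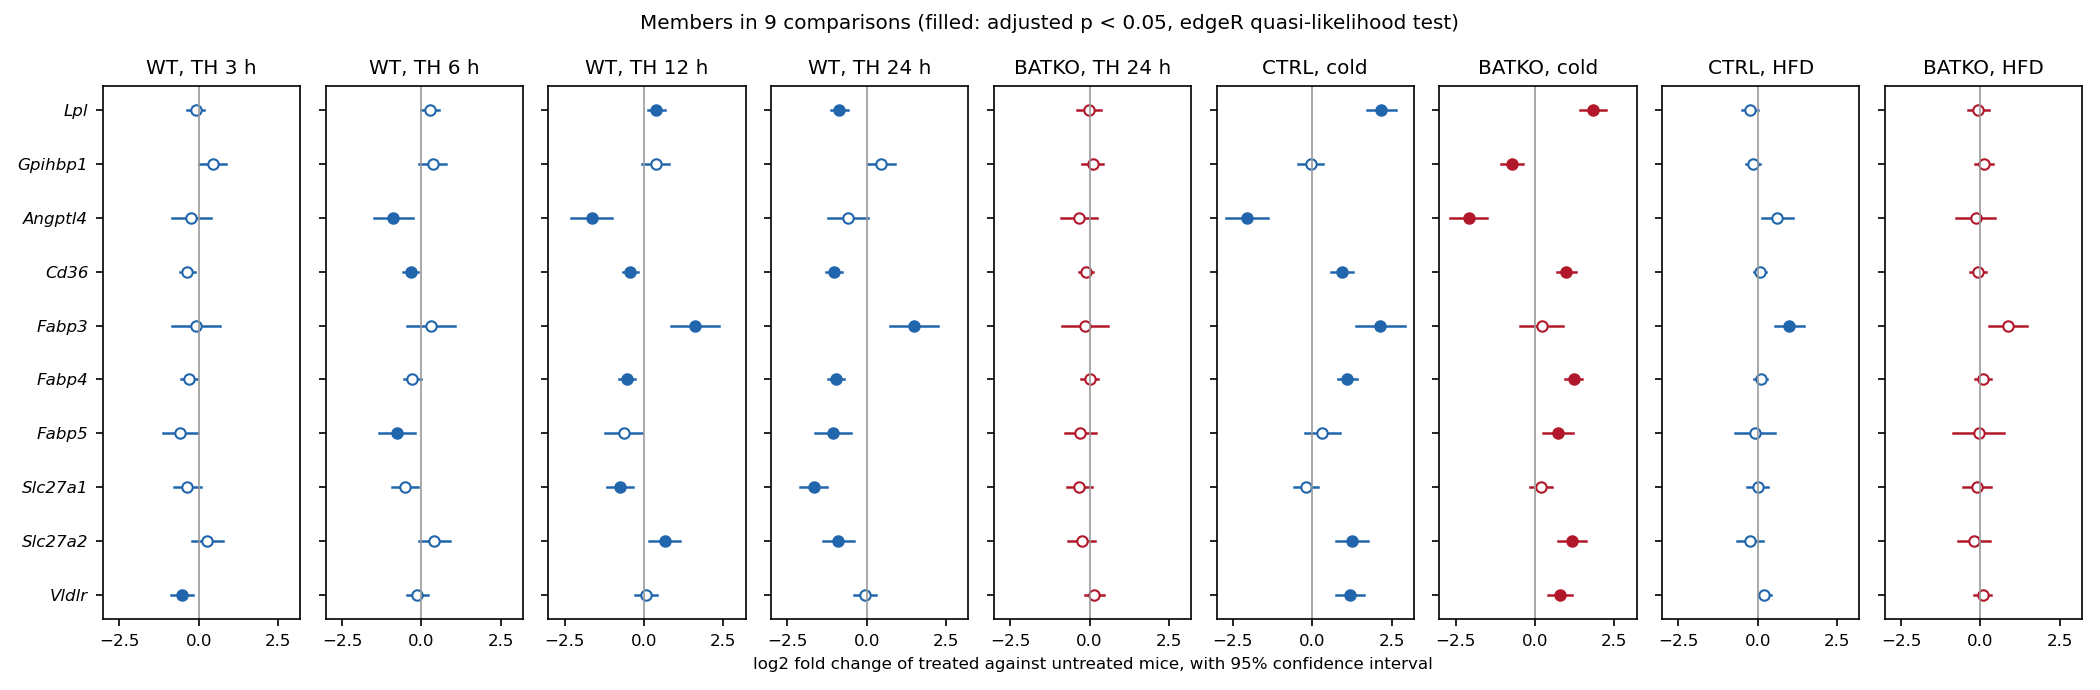
Log2 fold changes (points) of the 10 genes with 95% confidence intervals (lines) in 9 comparisons of treated with untreated mice of 1 genotype, in WT and CTRL (blue) and BATKO (red) mice. Filled points passed the adjusted p threshold of 0.05. The 10 points of BATKO mice after TH all lie between −0.33 and 0.15, while Lpl and Angptl4 lie far from 0, in opposite directions, in the cold in both genotypes.

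In the cold, Lpl, Vldlr, Cd36, Slc27a2 and Fabp4 rose in both genotypes, and Angptl4 fell. Of the 10 genes, 6 were higher and 1 lower in CTRL mice at 4 °C than at 30 °C, against 49.1% of all genes called. In BATKO mice 6 were higher and 2 lower, against 40.2%. The median log2 fold change of the 10 genes was 1.02 in CTRL and 0.76 in BATKO mice, and that of all genes −0.01 and −0.02. Brown adipocyte markers moved with the temperature as well, with a summed level of 2036 to 3783 CPM at 30 °C and 16631 to 20373 CPM at 4 °C in CTRL mice, and 2427 to 3606 and 10014 to 17308 CPM in BATKO mice. Most of the sum at 4 °C came from Ucp1, the uncoupling protein of brown fat, which was at 146 to 1301 CPM at 30 °C and 13418 to 17186 CPM at 4 °C in CTRL mice. Of the 6 markers, 5 were higher in each genotype, and in CTRL mice Adipoq was lower, at 644 to 931 CPM at 30 °C and 315 to 424 CPM at 4 °C. Their part in these results was not tested.

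**Figure D3:**
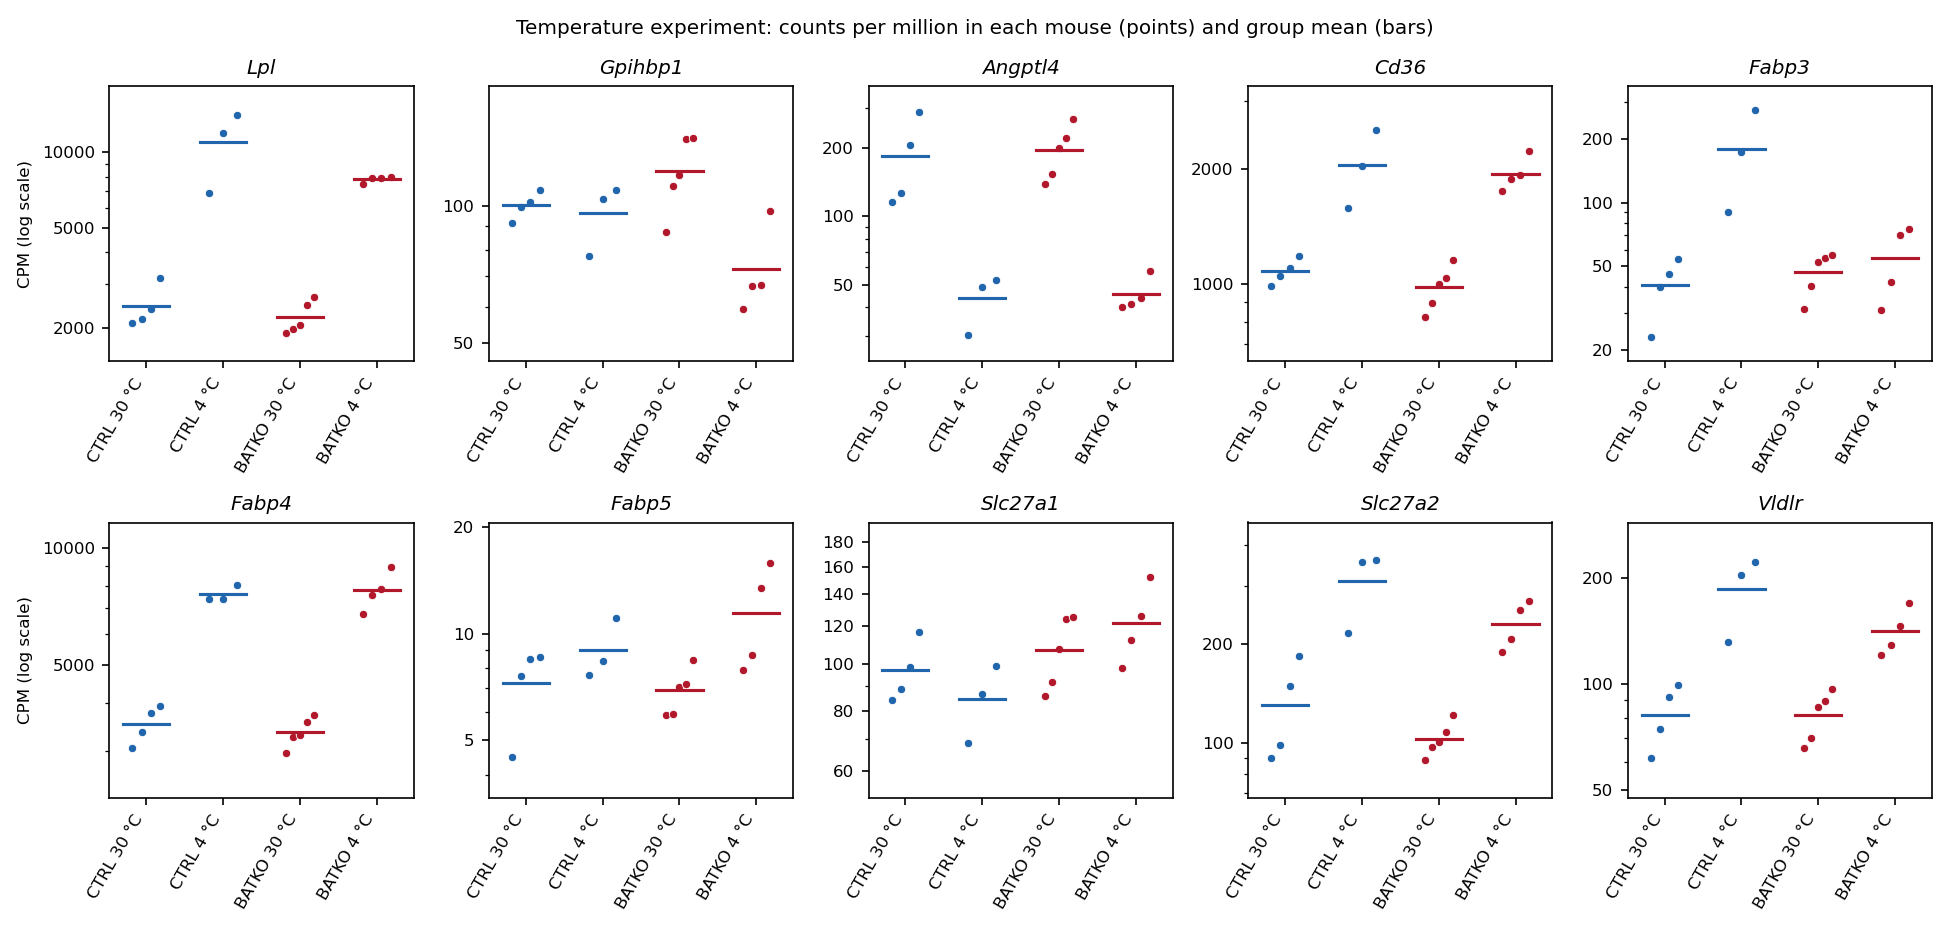
CPM (log scale) of the 10 genes in each mouse of the temperature experiment (points), with the group mean (bars). CTRL groups are blue and BATKO groups red. Lpl is above and Angptl4 below every 30 °C mouse of the same genotype at 4 °C in both genotypes, and Fabp3 is highest in the 3 CTRL mice at 4 °C.

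Lpl rose in both genotypes, and in CTRL mice its rise and that of Fabp3 could not be ordered beyond their errors. It was at 2178, 2088, 2369 and 3155 CPM in CTRL mice at 30 °C and 6885, 11969 and 14125 CPM at 4 °C (4.49-fold higher, log2 fold change 2.17 ± 0.22 (SE), adjusted p = 8.79e-07). In BATKO mice it was at 2650.1, 2050.0, 2465, 1917 and 1974 CPM and 7461, 7891, 7996 and 7929 CPM (3.54-fold higher, log2 fold change 1.82 ± 0.19 (SE), adjusted p = 2.72e-06). Neither genotype had an overlap between temperatures. The 4 BATKO values at 4 °C lay close together, within the wider range of the 3 CTRL values.

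Angptl4 moved the other way. It was at 287, 205, 127 and 116 CPM in CTRL mice at 30 °C and 49.2, 52.8 and 30.2 CPM at 4 °C (4.17-fold lower, log2 fold change −2.06 ± 0.32 (SE), adjusted p = 6.36e-05). BATKO mice had 199, 267, 221, 138 and 153 CPM and 57.8, 40.2, 43.8 and 41.4 CPM (4.27-fold lower, log2 fold change −2.10 ± 0.28 (SE), adjusted p = 2.75e-05). The enzyme and its inhibitor were thus called in opposite directions in both genotypes, with no overlap between temperatures.

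Gpihbp1 was lower at 4 °C in BATKO mice, with 66.6, 59.3, 66.9 and 97.1 CPM against 87.7, 139.6, 117, 110.3 and 141 CPM at 30 °C (log2 fold change −0.71 ± 0.17 (SE), adjusted p = 0.00279). Mouse 12 at 4 °C overlapped mouse 13 at 30 °C. CTRL mice had 108, 103 and 77.5 CPM at 4 °C and 102, 108, 99.2 and 91.6 CPM at 30 °C (log2 fold change −0.06 ± 0.19 (SE), adjusted p = 0.822). The difference between the responses did not pass the test (difference of log2 fold changes −0.66 ± 0.25 (SE), adjusted p = 0.162), so that the response was not shown to differ between the genotypes. The endothelial sum was 630.1 to 809.6 CPM at 4 °C and 633 to 838 CPM at 30 °C in BATKO mice. In CTRL mice it was 793 to 889 CPM at 4 °C, above all mice at 30 °C, which had 585 to 696 CPM. Its part in the values of Gpihbp1 was not tested.

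Vldlr rose in both genotypes, from 61.6, 74.4, 91.7 and 99.1 CPM at 30 °C to 132, 222 and 204 CPM at 4 °C in CTRL mice (log2 fold change 1.19 ± 0.20 (SE), adjusted p = 0.000151). In BATKO mice it was at 65.6 to 96.5 CPM and 146, 170.1, 129 and 121 CPM (log2 fold change 0.80 ± 0.18 (SE), adjusted p = 0.00211). Cd36 rose 1.89-fold in CTRL mice, from 1100.4, 988, 1049 and 1185 to 1584, 2032 and 2525 CPM (log2 fold change 0.92 ± 0.16 (SE), adjusted p = 0.000218). In BATKO mice it was at 820.0 to 1155 CPM at 30 °C and 2218, 1928, 1879 and 1746 CPM at 4 °C (log2 fold change 0.98 ± 0.14 (SE), adjusted p = 6.48e-05). The temperatures did not overlap for either gene in either genotype.

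Slc27a2 was higher in the cold, at 215, 361 and 355 CPM against 184, 89.6, 98.6 and 148 CPM in CTRL mice (log2 fold change 1.25 ± 0.24 (SE), adjusted p = 0.000358). BATKO mice had 189.7, 254, 271 and 207 CPM against 88.2 to 121 CPM (log2 fold change 1.16 ± 0.21 (SE), adjusted p = 0.000357). Slc27a1, the other transport protein, had 99.2, 86.9 and 68.5 CPM at 4 °C and 84.5 to 117 CPM at 30 °C in CTRL mice (log2 fold change −0.20 with a 95% confidence interval of −0.59 to 0.19). It was not called in BATKO mice either (log2 fold change 0.19 with a 95% confidence interval of −0.15 to 0.53).

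Fabp4 rose in both genotypes, with 7387, 8024 and 7416 CPM at 4 °C against 3931, 3757, 3062 and 3363 CPM at 30 °C in CTRL mice (log2 fold change 1.11 ± 0.14 (SE), adjusted p = 9.55e-06). In BATKO mice it was at 7578, 8966, 7850.2 and 6773 CPM against 2959 to 3728 CPM (log2 fold change 1.21 ± 0.12 (SE), adjusted p = 2.55e-06). Fabp5 was called in BATKO mice alone, at 15.8, 13.4, 8.68 and 7.9 CPM against 7.22, 5.94, 8.44, 7.07 and 5.89 CPM, with overlap (log2 fold change 0.73 ± 0.23 (SE), adjusted p = 0.0173). That call was lost without BATKO mouse 7 or 8 (adjusted p of up to 0.0871), and the interaction term did not pass (difference of log2 fold changes 0.42 ± 0.35 (SE), adjusted p = 0.554). Summed with its pseudogenes, Fabp5 kept the call in BATKO mice.

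Fabp3 was called in the cold in CTRL mice and not in BATKO mice, and it differed between the genotypes at 4 °C. CTRL mice had 23.1, 39.9, 46 and 54 CPM at 30 °C and 90.3, 274 and 175 CPM at 4 °C, without overlap (4.41-fold higher, log2 fold change 2.14 ± 0.37 (SE), adjusted p = 0.000153). BATKO mice had 40.3, 31.5, 52.6, 56.3 and 54.8 CPM at 30 °C and 70.3, 75.4, 42.2 and 31.1 CPM at 4 °C, and the groups overlapped (log2 fold change 0.22 with a 95% confidence interval of −0.46 to 0.89). At 4 °C, Fabp3 was 3.28-fold lower in BATKO than in CTRL mice (log2 fold change −1.72 ± 0.36 (SE), adjusted p = 0.0242), with all 4 BATKO values below the 3 CTRL values. It was the only one of the 10 genes called between genotypes at 4 °C, against 2.16% of all genes. The call was lost without BATKO mouse 12 (adjusted p = 0.0742) or CTRL mouse 2 (adjusted p = 0.126), and in a fit of the 7 mice at 4 °C alone (adjusted p = 0.0707).

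The difference between the cold responses of the genotypes was −1.93 on the log2 scale for Fabp3, with a 95% confidence interval of −2.95 to −0.90, and it missed the threshold (adjusted p = 0.0624). DESeq2 called it (adjusted p = 0.00417), as did edgeR without CTRL mouse 5 (adjusted p = 0.0393). Of the 10 genes, 0 were called in this comparison by edgeR, against 1.12% of all genes. At an unadjusted p below 0.05 there were 2 of the 10, against 18.6% of all genes, and DESeq2 called 1 of the 10, against 651 of all 13257 genes. At 30 °C, 0 of the 10 were called between genotypes, against 0.00754% of all genes. At an unadjusted p below 0.05 there were 0 of the 10, against 9.08% of all genes, and DESeq2 called 0 of the 10 and 8 of all genes. Fabp3 was there 0.21 on the log2 scale, with an interval of −0.47 to 0.89.

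Measures that could move with Fabp3 were examined beside it. Summed with Fabp3-ps1, the difference between genotypes at 4 °C was −1.50 (adjusted p = 0.0284), and the cold response was 2.01 in CTRL (adjusted p = 0.000123) and 0.40 in BATKO mice (adjusted p = 0.294). The muscle marker sum was 146 to 719.8 CPM in CTRL mice at 4 °C, 6.02 to 1849.8 CPM in BATKO mice at 4 °C and 1.36 to 5209 CPM in CTRL mice at 30 °C. None of the 10 muscle markers was called in any of the temperature comparisons. BATKO mice 13 and 17 at 30 °C, with muscle sums of 8468 and 9420.3 CPM, had 40.3 and 54.8 CPM of Fabp3, within the range of their group. At 4 °C, BATKO mouse 12, without which the difference between genotypes was not called, had both the lowest muscle sum, 6.02 CPM, and the lowest Fabp3, 31.1 CPM, of its group. The part of muscle transcripts in the result was not tested.

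**Figure D4:**
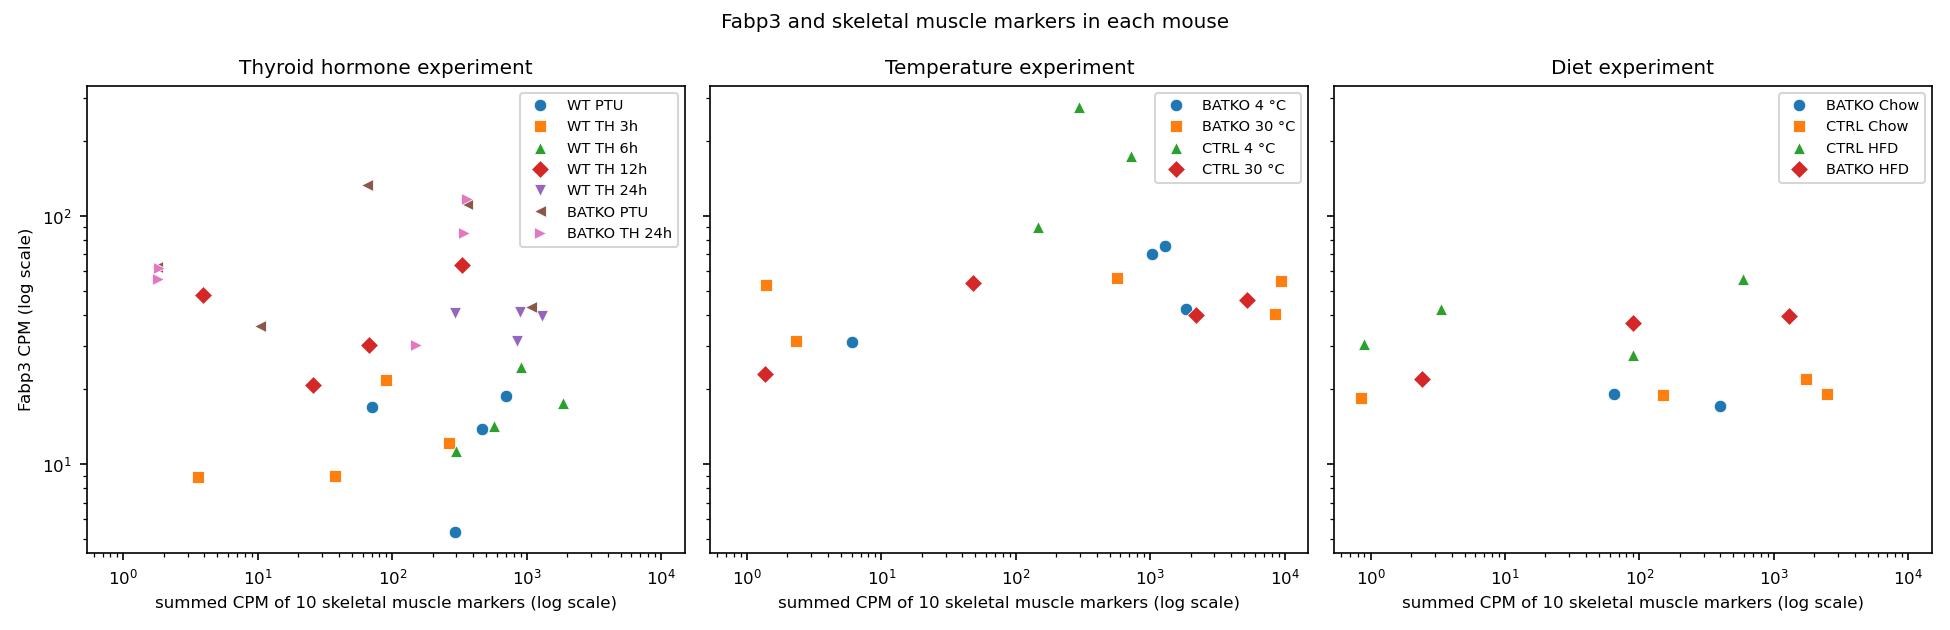
Fabp3 CPM against the summed CPM of 10 skeletal muscle markers in each mouse (points, symbols by group), both on log scales, for the 3 experiments. The 3 CTRL mice at 4 °C have the highest Fabp3 of the temperature experiment, 90.3 to 274 CPM, at muscle sums of 146 to 720 CPM. The other mice have lower Fabp3, at muscle sums both below and above these.

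The diet changed 1 of the 10 genes. Fabp3 was higher on HFD than on chow in CTRL mice, at 30.6, 55.6, 27.6 and 42.2 CPM against 18.4, 18.9, 19.1 and 22.1 CPM, without overlap (1.98-fold higher, log2 fold change 0.99 ± 0.21 (SE), adjusted p = 0.0217). It was the only one called, against 3.93% of all genes. Without CTRL mouse 2 on chow or mouse 11 on HFD it was not called (adjusted p of up to 0.0718). Summed with Fabp3-ps1, which held 63.3 to 73.0% of the sum on HFD, the log2 fold change was 0.96 (adjusted p = 0.00834). The muscle marker sum was 0.89 to 594 CPM on HFD and 0.848 to 2495 CPM on chow, and none of the 10 markers was called. In CTRL mice the macrophage marker sum was higher in every mouse on HFD, at 89.5 to 237 CPM against 64.1 to 76.2 CPM, with none of the 7 markers called. The brown adipocyte sum was 4561 to 5769.6 CPM on HFD and 3155 to 5015 CPM on chow, with 1 of 6 markers called higher. Prdm16, a regulator of brown fat identity, was at 17.5 to 28 CPM on HFD and 8.09 to 15.2 CPM on chow. The part of these measures in the result was not tested.

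**Figure D5:**
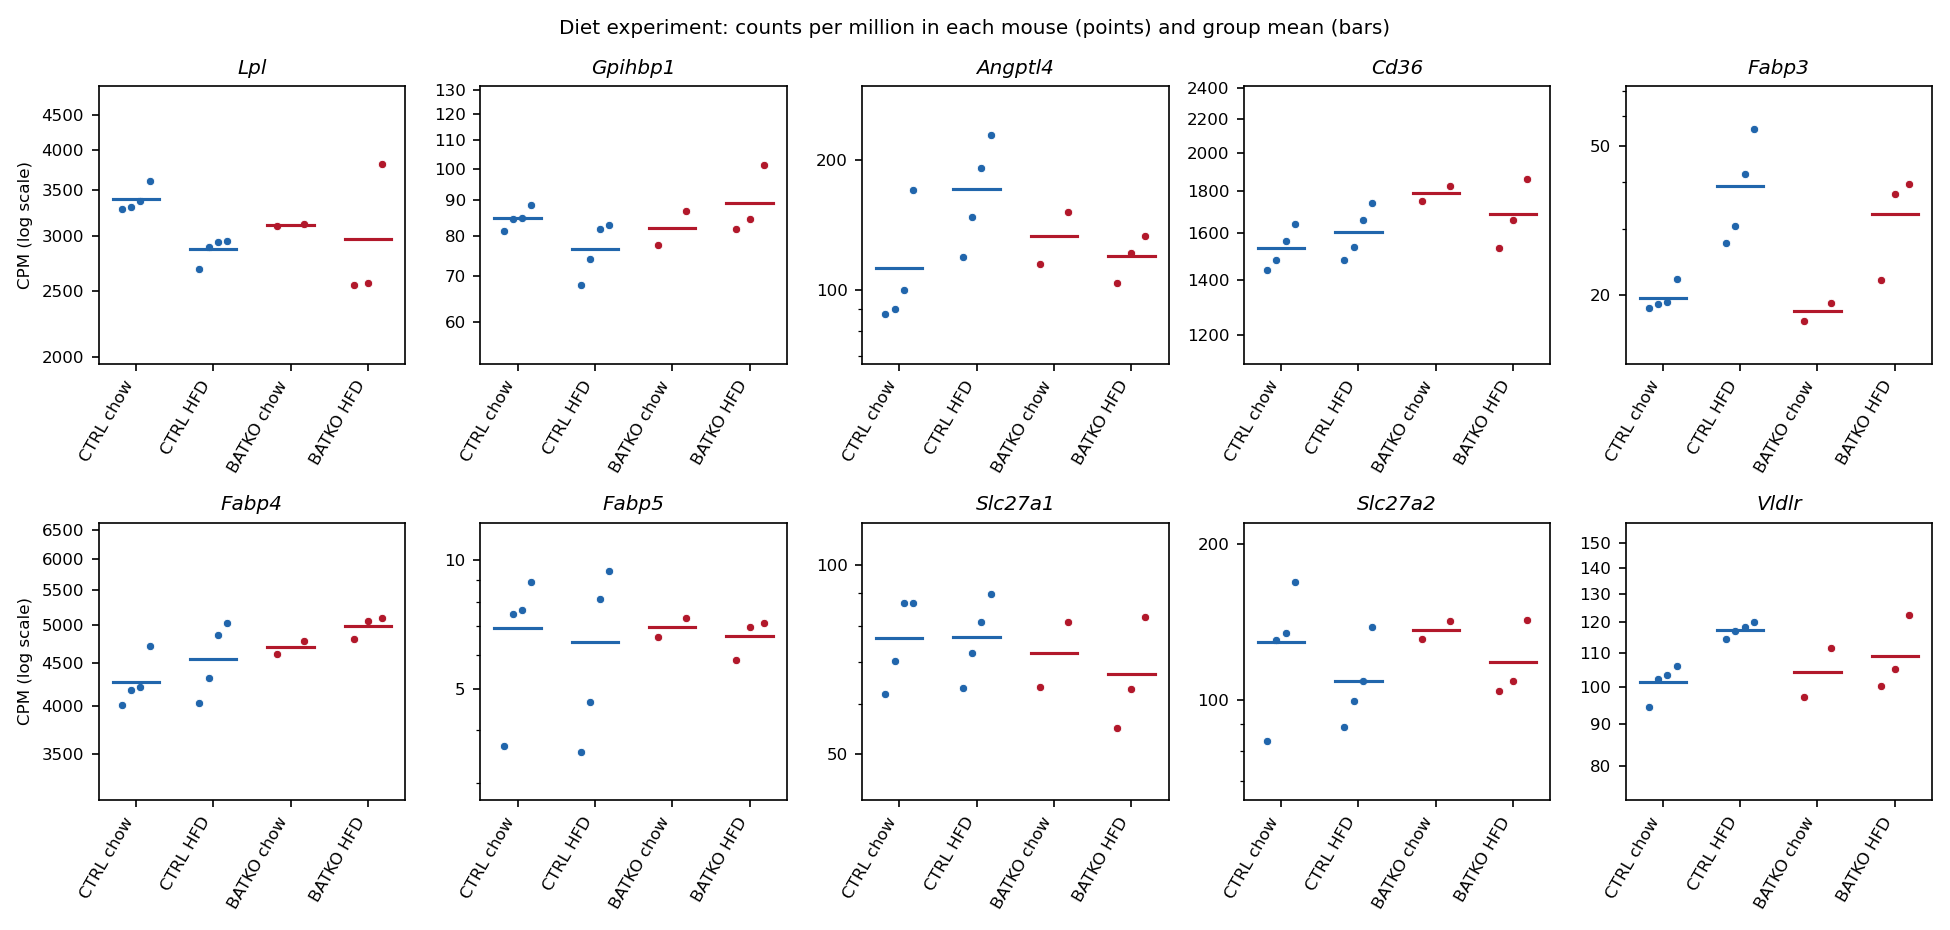
CPM (log scale) of the 10 genes in each mouse of the diet experiment (points), with the group mean (bars). CTRL groups are blue and BATKO groups red. Fabp3 is above the chow mice of the same genotype in every mouse on HFD, and the other genes overlap between the diets in CTRL mice, except Lpl and Vldlr.

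In BATKO mice Fabp3 was at 22, 37.2 and 39.5 CPM on HFD and 17.1 and 19.1 CPM on chow (log2 fold change 0.87 ± 0.28 (SE), adjusted p = 0.198). The values did not overlap, but chow had only 2 mice. None of the 10 genes was called in BATKO mice on HFD, against 0.0696% of all genes. At an unadjusted p below 0.05 there was 1 of the 10, against 15.4% of all genes, and DESeq2 called 0 of the 10 and 226 of all 12922 genes. In these mice the macrophage sum ran the other way than in CTRL mice, at 71.5 to 141 CPM on HFD and 155 to 191 CPM on chow. The muscle sum was 2.42 to 1298 and 64.4 to 401 CPM. The brown adipocyte sum was 5505 to 7535 and 3939.6 to 5160.4 CPM, with 1 of 6 markers called higher. The interval of the difference between the genotypes' responses, −0.87 to 0.62, was wide for Fabp3.

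Between genotypes, 0 of the 10 genes were called on HFD and 0 on chow, against 0.00% and 0.00% of all genes, and 0 in the difference of the responses, against 0.00%. In each of these edgeR had 0 of the 10 at an unadjusted p below 0.05, and DESeq2 called 0 of the 10. Over all genes edgeR had 690, 1022 and 737 of 12922 genes at an unadjusted p below 0.05, and DESeq2 called 9, 33 and 0 genes. Among the differences of responses, the estimate for Angptl4 lay farthest from 0. It was at 191, 228, 119 and 147 CPM on HFD and 170.1, 90.2, 100.05 and 87.6 CPM on chow in CTRL mice, while BATKO mice had 103, 133 and 122 CPM on HFD and 115 and 151 CPM on chow. The difference was −0.77 on the log2 scale, with a 95% confidence interval of −1.55 to 0.01. For Lpl, CTRL mice had 2688, 2889.9, 2944 and 2953 CPM on HFD and 3284, 3610.4, 3311 and 3373 CPM on chow. The groups did not overlap, and the difference did not pass the test (log2 fold change −0.24 ± 0.12 (SE), adjusted p = 0.252). Vldlr was higher in every CTRL mouse on HFD, at 118, 114, 117 and 119.9 CPM against 106, 102, 103 and 94.3 CPM on chow, and did not pass either (log2 fold change 0.21 ± 0.09 (SE), adjusted p = 0.201). Cd36 (log2 fold change 0.07 with a 95% confidence interval of −0.13 to 0.26) and Fabp4 (log2 fold change 0.09 with a 95% confidence interval of −0.11 to 0.29) were not called between the diets in CTRL mice.

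Another 58 genes of the pathway were listed by function, of which 40 to 43 passed the filter on low counts. In WT mice 42 were tested, of which 5 were higher and 1 lower at 3 h, beside 9.12% of all genes called. The counts were 11 higher and 7 lower at 6 h, beside 23% of all genes. They were 9 higher and 7 lower at 12 h, beside 25.7%, while 15 were higher and 9 lower at 24 h, beside 32.7%. Lipg, an endothelial lipase gene of the LPL family, rose at each time point (log2 fold change 1.96 ± 0.39, adjusted p = 0.00262 at 3 h, and 2.39 ± 0.39, adjusted p = 6.87e-05 at 24 h, ± SE). At 24 h the acyl-CoA synthetase gene Acsl1, whose product activates long-chain fatty acids, fell with Slc27a1 (−1.81 ± 0.16, adjusted p = 5.19e-08), as did the caveolin gene Cav1 (−1.19 ± 0.12, adjusted p = 2.74e-07). Ppard, a nuclear receptor of fatty acids, rose (1.26 ± 0.20, adjusted p = 5.74e-05). The fatty acid receptor gene Ppara fell at 12 h (−1.36 ± 0.24, adjusted p = 0.000217), and so did Cavin1, a component of caveolae (−1.09 ± 0.15, adjusted p = 1.82e-05).

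In BATKO mice 0 of 43 of these genes were called after TH, as were 0.00% of all genes. The interaction term was called for 11 of 43, with 3 higher and 8 lower in BATKO, beside 12.3% of all genes. Among them, Acsl1 (1.44 ± 0.30, adjusted p = 0.00233) and Cav1 (0.93 ± 0.18, adjusted p = 0.00129) differed in the direction of Cd36 and Fabp4. Lipg (−2.18 ± 0.57, adjusted p = 0.0107) and Ppard (−1.26 ± 0.24, adjusted p = 0.000806) differed in the other direction.

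In the cold, 20 were higher and 9 lower of 42 in CTRL mice, beside 49.1% of all genes called. In BATKO mice 13 were higher and 5 lower, beside 40.2% of all genes. Of the 7 genes of transport proteins and acyl-CoA synthetases tested, 5 were higher in CTRL and 6 in BATKO mice, and none was lower. Acsl5, another acyl-CoA synthetase, rose in CTRL mice (4.44 ± 0.30, adjusted p = 3.06e-08) and rose in BATKO mice too (3.19 ± 0.25, adjusted p = 3.23e-07). At 4 °C it was lower in BATKO than in CTRL mice (−1.39 ± 0.27, adjusted p = 0.0173). Mfsd2a, a lipid transporter, rose in both (3.73 ± 0.89, adjusted p = 0.0025 in CTRL and 4.01 ± 0.81, adjusted p = 0.000988 in BATKO mice). Apoe, an apolipoprotein gene, fell in both (−1.22 ± 0.26, adjusted p = 0.000896 and −1.76 ± 0.23, adjusted p = 2.23e-05). The lipoprotein receptor gene Lrp1 fell in BATKO mice (−1.44 ± 0.17, adjusted p = 9.75e-06). Pcsk6, a proprotein convertase gene, was lower in BATKO mice at 4 °C (−1.18 ± 0.16, adjusted p = 0.0018), and its cold response differed between the genotypes (−1.20 ± 0.22, adjusted p = 0.022), as did that of Apoc1 (−1.38 ± 0.25, adjusted p = 0.0226).

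On HFD 3 of 40 pathway genes were higher and 2 lower in CTRL mice, beside 3.93% of all genes. Acsl1 (0.51 ± 0.12, adjusted p = 0.0308) and the acyl-CoA binding protein gene Dbi (0.51 ± 0.12, adjusted p = 0.0295) rose, and Ppara (−0.52 ± 0.13, adjusted p = 0.0409) fell. In BATKO mice 0 of 40 were called by edgeR, as between genotypes on either diet.

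Across all 59 mice, with each experiment centred on its mean, Lpl and Cd36 were the members most alike (Pearson's r = 0.88), followed by Lpl and Vldlr (r = 0.77) and by Lpl and Slc27a2 (r = 0.74). Lpl and Angptl4 had the most negative value (r = −0.77). These values are descriptions, and they share treatments, libraries and, in the TH experiment, the gap between the WT and BATKO libraries. Of 8465 other genes, those most like Lpl were Hacd2 (r = 0.92) and Apmap (r = 0.91). For Cd36 they were Pex13 and Cmpk1 (r = 0.92 each), for Vldlr Arpc5l and Commd3 (r = 0.88 each), for Gpihbp1 Shank3 and Esam (r = 0.92 each), and for Angptl4 Rnf19b (r = 0.86) and Tln2 (r = 0.84). For Slc27a1 they were Smoc1 and Pck1 (r = 0.79 each), and for Slc27a2 Acad11 (r = 0.81) and Slc4a4 (r = 0.79). Fabp4 was most like Scp2-ps2 (r = 0.91) and Scp2 (r = 0.88), Fabp5 like Gm13835 (r = 0.90) and Gm12222 (r = 0.89), and Fabp3 like its own copy Fabp3-ps1 (r = 0.96) and Hk1 (r = 0.85).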

How the data were processed

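RNA was extracted with Trizol and libraries were made with a total RNA kit, per the labels. The authors aligned reads with GRCm38 by Bowtie (Bowtie2 2.3.2.2 in the submitters' processing notes, with mm10), removed poorly aligned reads, counted reads per gene with htseq-count, and deposited raw counts. Reads that match several genes can be lost or misplaced by such counting. The gene annotation and strand setting are not given in the sources used here. The 59 columns were matched to mice by the labels, and 0 were left over. Rows named by a date in place of a gene symbol (14 per file, at most 0.0469% of counts) were left out of the tests.

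Counts were analysed in R 4.3.3 with edgeR 4.0.16 (TMM, mean normalized count above 10, quasi-likelihood test, Benjamini-Hochberg adjustment over all genes, threshold 0.05), on the 20 WT mice for the time course, all 30 TH mice for BATKO and the interaction, and all mice of the temperature or diet experiment. Standard errors come from the F statistic. Replicates are separate mice of 1 label. For 91 pairs of mice within groups, the chi-square statistic was at least 7.47 times its degrees of freedom, and none looked like 1 library deposited again. Alternatives were DESeq2 1.42.0, RLE normalization, no filter, a mean count above 50, other sets of mice, and each mouse left out. Copies of transcripts were searched with BLAST 2.17.0 (at least 300 bases at 90% identity). The fits were tested on simulated data. The genes named are the 10 members and, among the 58 pathway genes, up to 2 per direction and comparison with the largest change past the threshold and a mean count above 50. Of the genes this rule names, 1 is not reported here. For similarity, the 2 genes of highest Pearson correlation of log2 CPM (prior count 2) were taken. The members and lists were chosen with earlier results of these data known.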

Additional observations from a re-analysis of the deposited data

Results flagged for a closer look

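In 4 of 120 groups of 4 or 5 mice searched, 1 mouse lay far from the others for 1 of the 10 genes. Chance gives about 1 in 20, or 6 groups. Angptl4 at 12 h after TH in WT mice was 29.3 CPM in B21, against 15.6 to 17.6 CPM in the others, a gap of 0.852 of the group's range. Angptl4 in CTRL mice on chow was 170.1 CPM in mouse 1, against 87.6 to 100.05 CPM (gap 0.849 of the range). Fabp3 at 24 h in WT mice was 31.3 CPM in B28, against 39.5 to 41.1 CPM (gap 0.834). Vldlr at 6 h in WT mice was 144 CPM in B17, against 163 to 167 CPM (gap 0.850).

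The response to TH at 24 h differed between BATKO and WT mice, by the interaction term of edgeR, for Cd36 (difference of log2 fold changes 0.93), Fabp4 (0.98), Lpl (0.83) and Slc27a1 (1.35). The libraries of the 2 genotypes also differ as sets, and their part in this was not tested. As given above, the call of Lpl was lost in most fits with a mouse left out. That of Slc27a1 was lost without BATKO mice 10, 11, 15 and 17.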

How the results depend on the processing

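No paired analysis was possible because the groups compared share no mouse number, so that no replicate block could be fitted. The number of the 10 genes called stayed within 1.5 times under the alternatives, except as follows. At 3 h in WT mice it was 1, and 2 with DESeq2 (Cd36 in addition). At 6 h it was 3, and 1 in the fit of all 30 mice. Between genotypes at 4 °C it was 1, and 0 with only the groups compared. For the difference of cold responses it was 0, and 1 with DESeq2 and 1 with no filter (Fabp3 in both). For HFD it was 1 in CTRL mice, and 2 with no filter (Angptl4 in addition), and 0 in BATKO mice, and 1 with no filter (Fabp3).

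With each mouse left out in turn, the number was 0 to 2 at 3 h, 0 to 3 at 6 h, 5 to 8 at 12 h and 7 to 8 at 24 h in WT mice, and 3 to 5 for the TH interaction. It was 7 in CTRL and 7 to 8 in BATKO mice in the cold, 0 to 1 between genotypes at 4 °C, 0 to 1 for the difference of cold responses, and 0 to 2 on HFD in CTRL mice. It stayed at 0 in the other comparisons. On chow in BATKO mice such a fit leaves 1 mouse, which is assumed to vary like the other groups. No member changed its direction where it was called. Of single genes' results, 388 of 457 kept their call with a mouse left out, and 301 of 322 under the other alternatives.

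For all genes, the count of calls moved by over 1.5 times between genotypes at 4 °C (286, 648 with DESeq2, 61 with only the groups compared), at 30 °C (1, 8 with DESeq2) and in the difference of cold responses (149, 651 with DESeq2). On HFD in CTRL mice it was 508, 872 with DESeq2, 1280 with no filter and 320 with only the groups compared. In BATKO mice it was 9, 226, 336 and 66. With each mouse left out it was 683 to 1308 at 3 h in WT mice (1185 with all mice, lowest without B3), 53 to 565 between genotypes at 4 °C (without CTRL mouse 2 or 5) and 5 to 891 for the difference of cold responses (without CTRL mouse 1 or 5). It was 166 to 713 on HFD in CTRL mice (without chow mouse 2 or 3), 0 to 9 in BATKO mice (0 without chow mouse 5 or HFD mouse 14 or 15, and 1 without chow mouse 6), 0 to 10 between genotypes on HFD (10 without CTRL mouse 10), and 0 to 1 after TH in BATKO mice (1 without mouse 9). Between genotypes on chow it was 0, 33 with DESeq2 and 114 with only the groups compared, and on HFD 0, and 9 with DESeq2. With no filter it rose from 0 to 59 between genotypes on HFD, to 290 on chow and to 216 in their difference. The cause was not tested. At 7612059 reads or more per mouse, Fabp5, with 28 reads in 1 mouse, has the widest counting error of the 10.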

Other observations

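The share of reads that went to near-identical copies differed between the experiments. Fabp3-ps1 held 41.8 to 57.6% of the reads of Fabp3 and its copy in WT mice and 47.3 to 52.2% in BATKO mice of the TH experiment. It held 31.5 to 64.5% in the temperature experiment and 63.3 to 74.1% in the diet experiment. The 5 copies of Fabp5 held 38.7 to 45.1% of the sum in BATKO mice of the TH experiment, where Fabp5 was at 17.6 to 62.3 CPM. They held 6.73 to 14.8% in WT mice of the same table, at most 13.1% in the temperature experiment and at most 4.55% in the diet experiment. These shares are given as values, and what sets them was not tested.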
